A study of Mus musculus with 12 samples.

Results

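Potassium channel genes were followed across the hippocampal transcriptome of mice in which Hp1bp3, the gene of heterochromatin protein 1 binding protein 3, had been targeted with a hairpin RNA. They were taken as the genes whose symbol begins with Kcn and a further letter and whose mean expected count over all libraries was at least 10, with Kcnj10, Kcne2, Kcnq1, Kcnq1ot1 and Kcnk9 left out by the same rule. The count table held 22236 genes, of which 94 matched the symbol pattern. Of these, 4 were among the genes left out by name and 12 lay under the count limit. The remaining 78 genes are described here, and all 78 passed the filter on low counts that left 15853 genes to be tested. Just above the limit were Kcnn4, Kcnrg and Kcng3, with mean counts of 11.7, 13.3 and 15.4, and just below it were Kcne3, Kcnj15 and Kcnk7, with 8.83, 6.72 and 4.08.

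The 4 groups came from male mice of the inbred strains C57BL/6J (B6) and DBA/2J (D2), aged 3 to 5 months at injection, and carried an adeno-associated virus of serotype 9 with either the hairpin against Hp1bp3 (KD) or a scrambled hairpin (Ctrl). Every animal, controls included, received virus, so no uninjected tissue was compared. The virus was injected into the dorsal hippocampus on both sides, and RNA was taken from dissected hippocampus at least 6 weeks later, so each library mixed reached and unreached cells of all types. Each group held 3 mice with 1 library each, which gave 12 libraries.

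Potassium channels let potassium leave the cell and thereby bring the membrane back towards rest after an action potential. A pore is built from alpha subunits, which open with voltage (Kv channels), with intracellular calcium or sodium (SK, BK and Slack channels), preferentially at negative potentials (inward rectifiers, Kir) or over a wide range of potentials (tandem-pore leak channels, K2P). Auxiliary subunits, such as Kv beta subunits and potassium channel interacting proteins (KChIPs), set how many channels reach the membrane and how fast they inactivate. In hippocampal pyramidal neurons these currents shape firing threshold, spike width and the after-hyperpolarization that follows a burst. Because the study recorded such membrane properties after KD, the first question was whether transcripts of the channels themselves differed between KD and Ctrl.

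Library totals lay between 18213084 and 39420219 expected counts. The normalised count of the target Hp1bp3 was lower by 2028 in KD than in Ctrl, averaged over the strains (exact 2-sided permutation test over libraries, p = 0.015), but the library labelled D2 KD 3, with 6941, lay within the D2 Ctrl range of 6504 to 7002. B6 KD 3 was also reduced less than its group, at 7633 against 5539 and 5429 in B6 KD 1 and 2 and 8826 to 9372 in B6 Ctrl. In the fit across genes Hp1bp3 had a log2 fold change of -0.54 ± 0.15 in B6 (edgeR adjusted p = 0.076) and of -0.25 ± 0.15 in D2 (adjusted p = 1), and it was called in neither. Markers of neurons, astrocytes, oligodendrocytes and microglia were above 0 in every library. Choroid plexus markers separated the libraries into 7 with a summed level of 2835 to 5356 CPM (counts scaled to a common library total) and 5 with 76.8 to 207. The 7 were B6 Ctrl 2, B6 KD 2 and 3, D2 Ctrl 2 and 3, and D2 KD 1 and 3. Interferon response genes were high in all 3 B6 KD libraries (548 to 1608 CPM summed over 15 genes), in D2 KD 1 and 2 (431 and 611) and, less so, in D2 Ctrl 3 (275), against 93.5 to 133 in the other 6 libraries.

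A few transcripts made up much of the family. Levels of different genes were compared only as CPM, normalised by the trimmed mean of M-values (TMM), per kilobase of annotated exon. On that scale the 8 highest members held 44.7% of the sum over all 78. Kcnab2, a Kv beta subunit, had the highest mean level, 101 CPM per kb, followed by the axonal Kv1 pore subunit Kcna1 with 52.8, the KChIP gene Kcnip2 with 42.8 and the leak channel gene Kcnk1 with 40.4. The inward rectifier gene Kcnj4 had 31.1 CPM per kb and the KChIP gene Kcnip3 29.9. In other classes high members were Kcnd2 of the A-type Kv4 channels with 24.7, the modulatory subunit gene Kcnf1 with 15.6, Kcnh3 of the ether-a-go-go (EAG) family with 14.5, the BK beta subunit gene Kcnmb4 with 9.85, the sodium-activated Kcnt1 with 7.43, Kcnn2 of the SK channels with 6.96 and Kcne1l with 6.87 CPM per kb. At the other end, 5 members had a mean below 1 CPM.

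**Figure D1:**
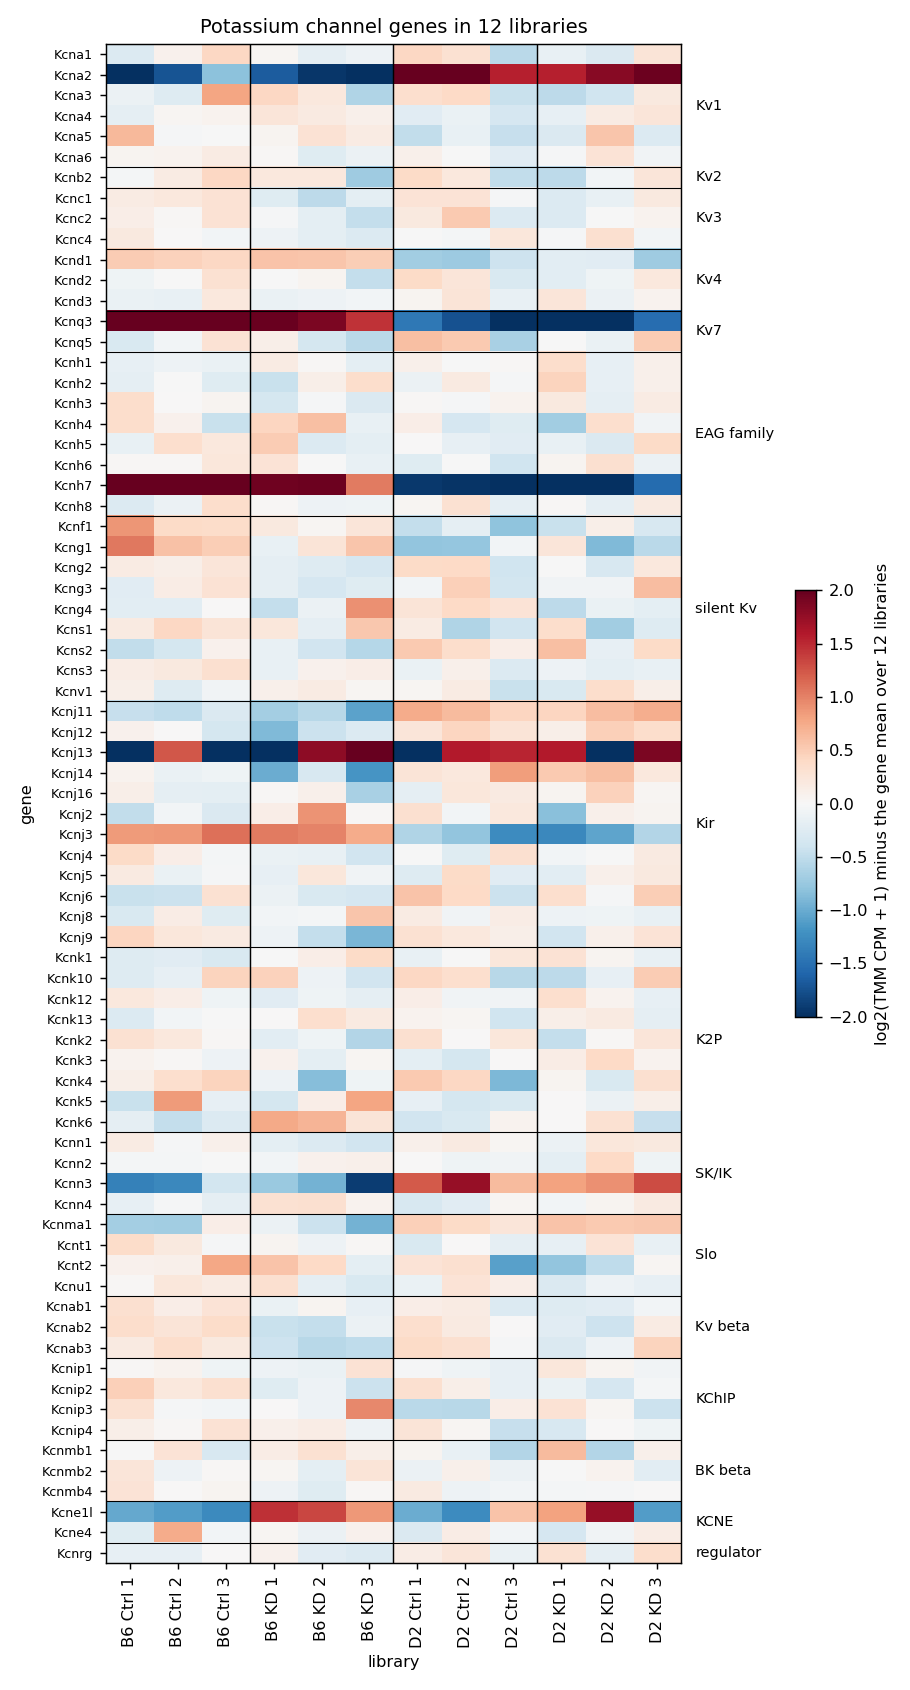
Heat map of 74 potassium channel genes (rows, ordered by subunit class) in the 12 libraries (columns). Colour gives log2(TMM CPM + 1) minus the gene's mean over the libraries, with values beyond 2 in either direction shown at the end of the scale. The rows with the strongest colours were Kcna2, Kcnq3, Kcnh7, Kcnj3 and Kcnn3, which divided by strain, Kcne1l, and Kcnj13, which followed 7 of the 12 libraries.

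In B6 mice most potassium channel transcripts had lower estimates after KD, but only 1 passed the test across all genes. Kcnab2, the Kv beta subunit with the highest level per length, was lower by 1.58-fold, and no member was called higher. A gene was called where the adjusted p of the edgeR fit was under 0.05. In that comparison 0.877% of all tested genes were called lower and 1.76% higher, and 1 lower member of 78 was close to that background. The log2 fold change (KD minus Ctrl) was negative for 58 of the 78 members, against 49.4% of all tested genes, with a median of -0.17 against 0.00. That number was 48 without B6 Ctrl 3, 50 without B6 KD 3 and 51 with the choroid plexus score as a covariate. At an unadjusted p under 0.05 there were 16 lower and 5 higher members, beside 8.72% and 11.9% of all genes. The potassium channel genes together took 0.505% to 0.539% of the counts of the B6 Ctrl libraries and 0.440% to 0.451% of those of the B6 KD libraries. Summed markers of neurons, in which most of these genes are best known, were also lower there, at 9440 to 11121 CPM in B6 KD against 11253 to 12429 in B6 Ctrl. Their mean log2 level overlapped, at 9.31 to 9.61 in KD against 9.55 to 9.68 in Ctrl. Of the 10 estimates 7 were lower and 3 higher, with 0 called by edgeR and 2 called lower by DESeq2 (4.88% of all genes). The 9 markers of CA pyramidal cells summed to 611 to 664 CPM in B6 KD against 746 to 921 in B6 Ctrl, without overlap, with 6 estimates lower, 3 higher and 0 called by edgeR (DESeq2 called 3 lower). Sums of dentate granule cell markers (238 to 308 CPM in KD against 265 to 365 in Ctrl) and of interneuron markers (716 to 1077 against 834 to 970) overlapped. In whole tissue, fewer cells of a type and less RNA per cell cannot be told apart, and the part of these markers in the result was not tested.

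Kcnab2 (ENSMUSG00000028931, chr4:152390742-152477871 on the minus strand in GENCODE M21, GRCm38) encodes the cytoplasmic Kv beta 2 subunit, which assembles with Kv1 pores and helps carry them to the axon. Its level was 704, 656 and 709.7 CPM in B6 Ctrl libraries 1, 2 and 3, and 404, 396 and 509.8 in B6 KD libraries 1, 2 and 3. All KD libraries were below all Ctrl libraries, with B6 KD 3 the nearest to them. The log2 fold change was -0.66 ± 0.15 (standard error, SE; adjusted p = 0.0487). The gene was not called with the choroid plexus score or the library total as a covariate or without the filter on low counts (adjusted p up to 0.0759), nor without any 1 of 8 of the 12 libraries (up to 0.189), while the estimate lay between -0.79 and -0.61 in every fit run. Its exons share 125 bases with Gm16334 on the same strand, which was not among the counted genes. In D2 it was 697, 624 and 552 CPM in Ctrl and 471, 415 and 615 in KD, where D2 KD 3 lay among the controls, and the D2 estimate was -0.32 ± 0.15 (adjusted p = 1).

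The next members in the order of the B6 p-values missed the threshold by little. Those with lower estimates are given first. Kcnk6 and Kcne1l, with higher estimates and in the same range (edgeR adjusted p = 0.0541 and 0.0675), are described below. Of the lower ones, Kcnip2 and Kcnc1 were named after their values were seen. Kcnab3, which encodes the Kv beta 3 subunit, was at 26.3, 29.7 and 26.7 CPM in B6 Ctrl and 17.2, 15.5 and 16.1 in B6 KD, a log2 difference of -0.76 ± 0.18 (adjusted p = 0.0512). Kcnip2, whose product binds Kv4 pores and speeds their recovery from inactivation, was at 204, 169 and 183 and 124, 137 and 108 CPM (-0.59 ± 0.14, adjusted p = 0.05102). Neither gene had any overlap between the B6 groups. Kcnc1, a Kv3 pore subunit that allows high firing rates, was at 239, 245 and 259 CPM in B6 Ctrl and 180.1, 148 and 185 in B6 KD (-0.53 ± 0.14, adjusted p = 0.0596). Kcnj9, the GIRK3 subunit of channels opened by G proteins, was at 118, 102 and 99.2 and 81.5, 62.7 and 45.9 CPM (-0.75 ± 0.20, adjusted p = 0.0711). For both, the 3 KD libraries again lay below the 3 Ctrl libraries, and for Kcnj9 the lowest was B6 KD 3, the B6 KD library with the most Hp1bp3.

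**Figure D2:**
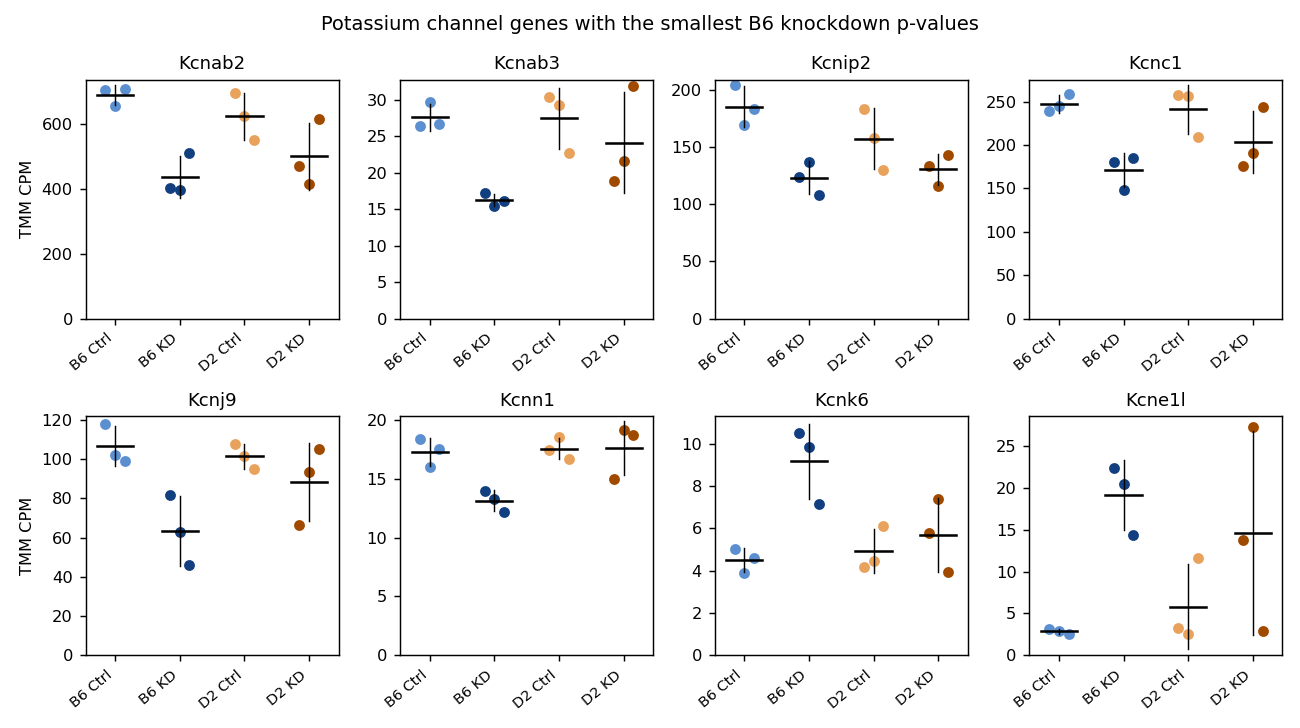
Level in TMM CPM (vertical axes, from 0) of the 8 potassium channel genes with the smallest p-values for KD in B6, by group. Points are libraries 1, 2 and 3 from left to right, horizontal bars are means and vertical lines are 1 SD on either side (n = 3). In B6 the KD points of every panel lie wholly below or above the Ctrl points, and in D2 they overlap in every panel.

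How many members passed depended on the fit. DESeq2 called 7 lower (Kcnab2, Kcnab3, Kcnip2, Kcnc1, Kcnj9, Kcnj14 and Kcnn1) and 3 higher (Kcne1l, Kcnk1 and Kcnk6), beside 4.88% and 5.77% of all genes. The newer quasi-likelihood method of edgeR called Kcnab2, Kcnab3 and Kcnip2 lower and Kcnk6 higher, beside 1.21% and 2.65%, and limma-voom called Kcnab2 alone, beside 0.889% called lower. Without D2 Ctrl 3 or without D2 KD 3, neither of which enters the B6 difference itself, 4 were called lower and 2 higher, without D2 KD 2 there were 2 and 1, and without B6 KD 3 there were 1 and 1. No member was called when any of the other 8 libraries was left out. The share of all genes called in these fits is not given here, so their counts have no background beside them.

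Ordered by role, the auxiliary subunits other than the Kv beta subunits did not move as a group. All 3 Kv beta genes had lower estimates in B6, with Kcnab1 at -0.33 ± 0.12, whereas the KChIP genes divided into 2 lower and 2 higher, and the BK beta genes into 2 lower and 1 higher. Kcnmb4, the neuronal BK beta subunit, had an estimate of -0.23 ± 0.11 (adjusted p = 0.253). Among all 13 auxiliary and regulatory genes, 9 estimates were lower.

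Of the 65 pore-forming genes, 49 had lower estimates in B6. The Kv3 genes Kcnc1, Kcnc2 and Kcnc4 had log2 estimates of -0.53, -0.38 and -0.24, and for each the KD libraries lay wholly below the Ctrl libraries. Kcnq3, a subunit of the M-current channel, was at 199, 177 and 259 CPM in B6 Ctrl and 139, 130.2 and 95.8 in B6 KD, a difference of -0.80 ± 0.40 (adjusted p = 0.287). Kcnq5, a further M-current subunit, had an estimate of -0.24 ± 0.32. The Kcnq3 groups did not overlap, the Kcnq5 groups did, and neither gene was called.

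The Kv1 and Kv4 pores delay and damp the spike, and none of their genes was called in B6. Kcna1 had an estimate of -0.18 ± 0.25 and Kcnd2 of -0.21 ± 0.20, both smaller than 2 SE. Kcna2 was at 15.1, 21.3 and 40.7 CPM in B6 Ctrl and 22.4, 18.1 and 10.9 in B6 KD (-0.59 ± 0.35, adjusted p = 0.367). Its groups overlapped, and B6 Ctrl 3 stood well above the other Ctrl libraries. The groups of Kcna4 and Kcna6 did not overlap, at 0.20 ± 0.12 and -0.20 ± 0.12.

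Of the 12 inward rectifier genes, 9 had lower and 3 higher estimates in B6. Kcnj14, which encodes Kir2.4, was at 3.29, 2.71 and 2.86 CPM in B6 Ctrl and 1.05, 2.28 and 0.806 in B6 KD, the most negative estimate among members at or above 1 CPM (-1.13 ± 0.36, adjusted p = 0.107). The GIRK1 and GIRK2 genes Kcnj3 and Kcnj6, whose channels carry the slow inhibition by GABA-B receptors, had estimates of -0.01 ± 0.20 and -0.11 ± 0.27, and both turned positive without B6 Ctrl 3. Kcnj9, their partner described above, had the lowest estimate of the GIRK genes named. Kcnj2, which encodes Kir2.1, was at 13.5, 18.6 and 15.7 CPM in B6 Ctrl and 21.5, 37.2 and 19.8 in B6 KD (0.71 ± 0.29, adjusted p = 0.2001), with B6 KD 2 far above the others.

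Among leak channels, Kcnk6, which encodes TWIK-2, was the member nearest to being called higher. Its level was 5.02, 3.900 and 4.598 CPM in B6 Ctrl and 10.5, 9.87 and 7.16 in B6 KD, a 2.03-fold difference with no overlap (1.02 ± 0.25, adjusted p = 0.0541). Kcnk1, which encodes TWIK-1 and is expressed in neurons and astrocytes, was at 74.3, 76.1 and 72.4 and 88.7, 98.2 and 117 CPM (0.45 ± 0.14, adjusted p = 0.101). For both genes all 3 KD libraries lay above all 3 Ctrl libraries. The mean log2 level of the 8 astrocyte markers was also higher without overlap in B6, at 8.66 to 8.999 in KD against 8.44 to 8.46 in Ctrl, with 5 of 8 estimates higher and 1 called by edgeR, Aqp4 (adjusted p = 0.0326). DESeq2 called 2 of these markers higher, beside 5.77% of all genes. Summed, they were at 6139 to 8015 CPM in KD against 5418 to 6264 in Ctrl, which overlap, none was at 0, and their part in the Kcnk1 result was not tested. Kcnk13, a halothane-inhibited channel gene expressed in microglia, had an estimate of 0.31 ± 0.17 (adjusted p = 0.331).

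The calcium-activated channels, which carry after-hyperpolarizing currents, had estimates below their error, apart from Kcnn1 and the scarce Kcnn4. Kcnn1, the SK1 subunit, was at 18.3, 16.02 and 17.5 CPM in B6 Ctrl and 13.99, 13.2 and 12.2 in B6 KD, without overlap (-0.40 ± 0.11, adjusted p = 0.0793). Kcnn2, the SK2 subunit and the highest of the class per length, was at 50.1, 50.2 and 51.4 and 49.8, 54.9 and 55.3 CPM (0.08 ± 0.13). Kcnn3, the SK3 subunit, had an estimate of -0.27 ± 0.49 and Kcnma1, the BK pore, of -0.11 ± 0.24. The last 2 turned positive when B6 Ctrl 3 or B6 KD 3 was left out (Kcnn3 0.26 and 0.12, Kcnma1 0.21 and 0.10), so no direction can be given for either.

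**Figure D3:**
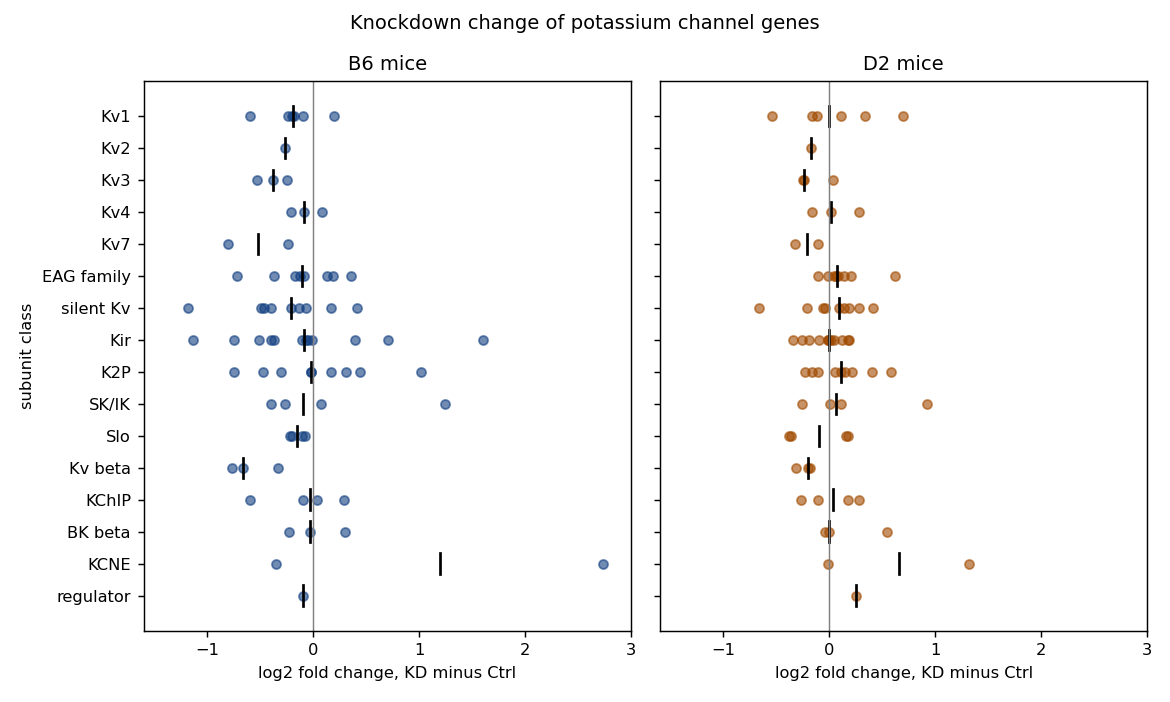
Log2 fold change of KD against Ctrl (horizontal axes) for 74 potassium channel genes by subunit class (rows), in B6 on the left and D2 on the right. Points are genes and black bars are medians of the points drawn. In B6 all Kv3, Kv beta and Slo points lie below 0, although Kcnma1 of the Slo class turned positive without B6 Ctrl 3 or B6 KD 3, and the point farthest to the right in both panels is Kcne1l, at 2.74 in B6 and 1.32 in D2.

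In all, the libraries of the 2 B6 groups did not overlap for 23 lower and 7 higher members, beside 14.0% lower and 13.9% higher of all tested genes. The lower ones included all 3 Kv beta genes and Kcnc1, Kcnc2 and Kcnc4, and the higher ones were Kcna4, Kcne1l, Kcnj2, Kcnk1, Kcnk6, Kcnk13 and Kcnn4. These genes were listed after their values were seen.

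The start regions of 4 of the leading genes are shown because they are the members with the smallest B6 p-values for which RefSeq gave a promoter sequence. Each runs from 250 bases before to 50 bases after an annotated start (RefSeq, GRCm38.p6, minus strand for all but Kcnc1), and Kcnab2 is shown for the farthest upstream of its 3 annotated starts. Capitals mark the GC box, GGGCGG or its complement CCGCCC, a motif bound by the Sp1 family.
Kcnab2, chr4:152477500-152477799: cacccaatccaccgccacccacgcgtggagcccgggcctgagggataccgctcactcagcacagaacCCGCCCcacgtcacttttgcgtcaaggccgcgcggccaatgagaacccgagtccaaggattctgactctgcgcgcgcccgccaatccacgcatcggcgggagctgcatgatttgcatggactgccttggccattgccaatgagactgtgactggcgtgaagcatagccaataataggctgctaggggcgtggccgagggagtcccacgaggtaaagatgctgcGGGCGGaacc
Kcnip2, chr19:45816014-45816313: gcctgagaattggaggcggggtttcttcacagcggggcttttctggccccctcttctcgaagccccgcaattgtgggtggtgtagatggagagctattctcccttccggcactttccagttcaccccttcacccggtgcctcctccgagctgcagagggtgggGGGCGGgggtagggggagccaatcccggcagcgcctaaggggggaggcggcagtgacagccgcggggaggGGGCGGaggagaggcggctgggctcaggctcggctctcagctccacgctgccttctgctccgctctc
Kcnc1, chr7:46396218-46396517: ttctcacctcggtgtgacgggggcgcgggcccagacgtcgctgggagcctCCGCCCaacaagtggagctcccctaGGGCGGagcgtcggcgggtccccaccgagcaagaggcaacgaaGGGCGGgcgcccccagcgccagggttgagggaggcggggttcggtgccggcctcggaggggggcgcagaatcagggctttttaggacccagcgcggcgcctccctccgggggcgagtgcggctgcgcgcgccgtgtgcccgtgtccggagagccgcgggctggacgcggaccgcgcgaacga
Kcne1l, chrX:142306149-142306448: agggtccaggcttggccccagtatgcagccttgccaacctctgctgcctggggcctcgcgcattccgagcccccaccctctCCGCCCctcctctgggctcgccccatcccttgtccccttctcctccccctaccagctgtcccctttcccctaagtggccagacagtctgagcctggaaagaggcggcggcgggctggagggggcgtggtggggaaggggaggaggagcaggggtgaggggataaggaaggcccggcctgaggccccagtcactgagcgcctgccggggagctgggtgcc

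The windows of Kcnab2 and Kcnip2 held 2 GC boxes each, that of Kcnc1 held 3 and that of Kcne1l held 1. RefSeq gave 80 such windows for 57 of the 78 potassium channel genes, and 40 of the 80 held a GC box, against 35.7% of all 32851 windows. Both strands were searched, and a match or its absence describes these letters only.

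In D2 mice no potassium channel gene was called after KD by edgeR, DESeq2 or limma-voom, which called 0%, 0.00631% and 0% of all genes. At an unadjusted p under 0.05 edgeR gave 2 members, both higher, beside 1.67% of all genes. Estimates were negative for 40 of 78 and the median was 0.00, as for all genes. Kcna4, a Kv1 pore of the A type, was at 31.8, 33.8 and 29.4 CPM in D2 Ctrl and 33.2, 42.1 and 44.6 in D2 KD (0.33 ± 0.12), and Kcnk3, the TASK-1 leak channel, was at 14.2, 12.7 and 16.5 and 18.3, 22.01 and 17.4 (0.41 ± 0.13). Only Kcnk3 of the pair was without overlap. Kcnk3, Kcnk5 and Kcnma1 did not overlap and were higher, and Kcng4 and Kcnj8 did not overlap and were lower, beside 2.93% and 3.03% of all genes. Kcna4, Kcnk3 and Kcnj8 were named here after their values were seen.

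Among members at or above 1 CPM, the most positive D2 estimates were those of Kcne1l at 1.32 ± 0.69, the Kv1 gene Kcna5 at 0.70 ± 0.40, the EAG family gene Kcnh6 at 0.62 ± 0.32 and the leak channel gene Kcnk5 at 0.58 ± 0.63. The most negative were those of the modulatory subunit gene Kcng4 at -0.67 ± 0.33, Kcna3 of the Kv1 class at -0.55 ± 0.57, Kcnu1, a pH-sensitive Slo channel gene, at -0.38 ± 0.24 and the sodium-activated Kcnt2 at -0.37 ± 0.40. All had an adjusted p of 1. Without D2 KD 3, whose Hp1bp3 level lay among the controls, the number of members with an unadjusted p under 0.05 was 9 and 48 estimates were negative, and without D2 Ctrl 3, the control with raised interferon genes, these were 11 and 48. No member was called in either case, and the shares of all genes in these fits are not given here.

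Averaged over the strains, edgeR and limma-voom called 0 members, where each called 0% of all genes. At an unadjusted p under 0.05 edgeR gave 12 lower and 5 higher, beside 8.33% and 10.9%. DESeq2 called 6 lower (Kcnab1, Kcnab2, Kcnab3, Kcnc1, Kcnip2 and Kcnj9) and 2 higher (Kcne1l and Kcnk6), beside 3.73% and 4.10% of all genes. Kcnab2 was the member with the smallest edgeR adjusted p, 0.0621, at a log2 difference of -0.49 ± 0.11. Estimates of KD were lower in both strains for 37 members and higher in both for 17, and the change was the larger in B6 for 55 of 78. The number called by edgeR reached 7 without D2 Ctrl 3, 6 without D2 KD 3 and 1 without B6 KD 3, again without a share of all genes to set beside it.

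Whether the KD difference itself depended on the strain was tested as an interaction, taken as the D2 difference minus the B6 difference. No member was called by edgeR or DESeq2, which called 0% and 0.0694% of all genes, and 9 members had an unadjusted p under 0.05, beside 5.91% of all genes. The estimate was positive for 57 of 78, with a median of 0.19 against 0.00 over all genes. That imbalance shrank to 45 of 78 and a median of 0.07 without D2 Ctrl 3, to 48 of 78 and 0.11 without B6 Ctrl 3 and to 50 of 78 and 0.09 without D2 KD 3. With library weights it was 45 of 78 and 0.07. The smallest interaction p-values belonged to Kcnj2 at -1.06 ± 0.41 (unadjusted p = 0.0259), Kcnn1 at 0.40 ± 0.16 (0.0281), Kcng4 at -1.09 ± 0.46 (0.0382) and Kcnf1 at 0.68 ± 0.28 (0.0357), in each case with an adjusted p of 0.821 or more. In B6 the mean of Kcnn1 was 17.3 ± 1.17 CPM in Ctrl and 13.1 ± 0.901 in KD (SD, n = 3), and in D2 it was 17.5 ± 0.9099 and 17.6 ± 2.298. No member had groups that separated in both strains, beside 0.618% of all genes that did so upward in both and 1.26% downward in both.

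The levels of a few members ran beside markers of other cells or states. Kcne1l, also known as Kcne5, encodes a single-span subunit that damps Kv7 and other Kv currents. It was at 3.16, 2.91 and 2.52 CPM in B6 Ctrl and 22.4, 20.5 and 14.4 in B6 KD, the most positive estimate of any member (6.67-fold, log2 2.74 ± 0.73, adjusted p = 0.0675). In D2 it was at 3.28, 2.55 and 11.6 in Ctrl and 13.7, 27.2 and 2.91 in KD. The 6 libraries with the highest interferon genes were those at 11.6 CPM or more, and the 6 others lay between 2.52 and 3.28 CPM. Of the 15 interferon response genes, 14 were called higher in B6 KD, beside 1.76% of all genes. None was called in D2, where edgeR called 0% of all genes and all 15 estimates were higher. Their summed levels were 93.5 to 116 CPM for Ctrl and 548 to 1608 for KD in B6. In D2 these were 108 to 275 and 133 to 611, and none of the 15 genes was at 0 in any library. The part of that response in the Kcne1l result was not tested. Without D2 Ctrl 3 the D2 estimate of Kcne1l was 2.32 and without D2 KD 2 it was 0.50, against 1.32 with all libraries.

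Kcnj13, which encodes Kir7.1 and is an epithelial channel of the choroid plexus, was at 0.917, 26.04 and 1.62 CPM for Ctrl and 1.73, 38.5 and 45.5 for KD in B6, and at 1.58, 33.2 and 31.9 for Ctrl and 33.3, 0.763 and 41.2 for KD in D2. It was above 25 CPM in exactly the 7 libraries rich in choroid plexus markers and below 2 CPM in the other 5. All 10 choroid plexus markers had higher estimates in B6 KD and 0 were called, with summed levels of 87.1 to 2835 CPM for Ctrl and 167 to 5261 for KD in B6, and 207 to 5253 and 76.8 to 5356 in D2. The B6 estimate of Kcnj13, 1.60 ± 1.57, became -0.24 with the choroid plexus score as a covariate. Its exons share 623 bases with those of Gigyf2 on the opposite strand, and whether counting used the strand is not given in the sources used here.

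Kcnk6, Kcnk13 and Kcnj2 are also known from microglia and vessels. All 10 microglia markers had higher estimates in B6 KD and 1, Itgam, was called by edgeR, while DESeq2 called 8 higher, beside 5.77% of all genes. Summed levels of these markers were 475 to 548 CPM for Ctrl and 698 to 1139.7 for KD in B6, and 431 to 722 and 447 to 797 in D2, and none was at 0. Their part in these results was not tested. Kcnj8, the Kir6.1 subunit of pericytes and smooth muscle, had an estimate of 0.40 ± 0.24 in B6 and -0.26 ± 0.24 in D2. Kcnj16, the Kir5.1 subunit of astrocytes, had -0.06 ± 0.21 and 0.12 ± 0.21, with no stable sign in B6. Neither was called.

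**Figure D4:**
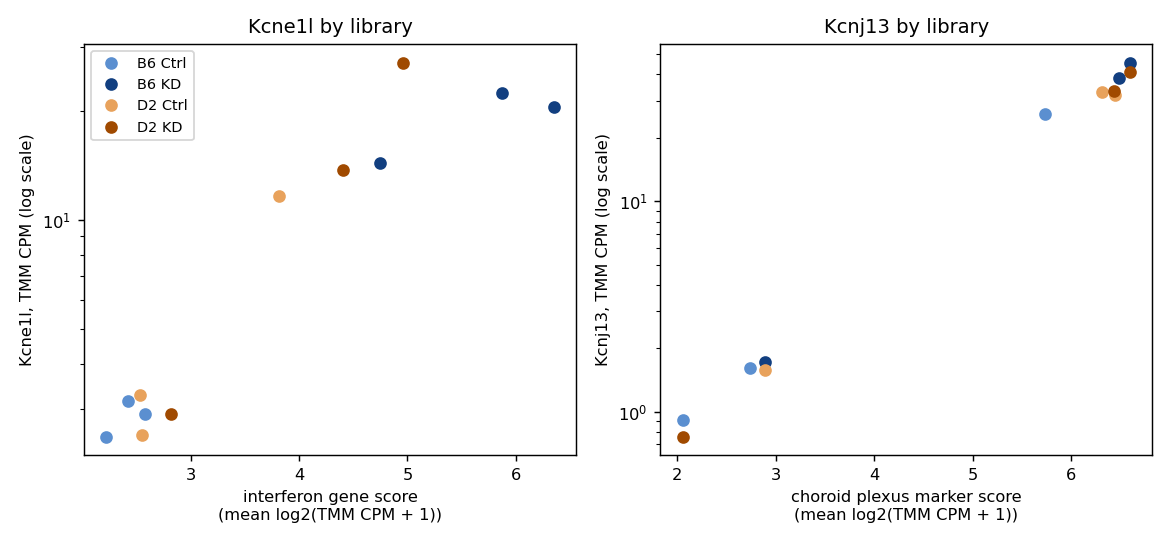
Level of Kcne1l against the interferon gene score (left) and of Kcnj13 against the choroid plexus marker score (right), with 1 point for each of the 12 libraries. Vertical axes give TMM CPM on a log scale, and scores are means of log2(TMM CPM + 1) over 15 and 10 genes. Kcne1l is at 11.6 CPM or more in the 6 libraries with the highest interferon scores, and Kcnj13 above 25 CPM in the 7 with the highest choroid scores.

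Between the strains several potassium channel genes differed many-fold. Averaged over treatments, D2 exceeded B6 for 8 called members and lay below it for 8, beside 8.64% and 12.7% of all tested genes, which is near the background, and 10 of the 16 differed by more than 2-fold. In Ctrl alone 4 were higher and 7 lower, beside 5.23% and 8.75% of all genes, and in KD alone 8 were higher and 5 lower, beside 5.92% and 9.05%. Reads of each mouse had been aligned to the genome of its own strain, so strain and reference cannot be told apart in any of these differences. Of the 16 genes, 5 are on chromosome 2, which holds 9 of the 78 members. The shares of all called genes on chromosome 2 or beyond 2-fold are not given here, so neither count has a background beside it.

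A large difference was that of the M-current subunit gene Kcnq3. Kcnq3 (ENSMUSG00000056258, chr15:65986387-66286642) was at 199, 177 and 259 CPM in B6 Ctrl and 12.2, 9.62 and 3.78 in D2 Ctrl, and at 139, 130.2 and 95.8 in B6 KD and 4.58, 4.58 and 11.4 in D2 KD. No library of one strain came near the other, and the averaged difference was -4.39 ± 0.33 on the log2 scale, or 21.00-fold lower in D2 (adjusted p = 2.07e-06). Kcnq5 had an estimate of 0.33 ± 0.22 and was not called.

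The largest difference of the family was in Kcnh7 (ENSMUSG00000059742, chr2:62693414-63184287), which encodes an ERG channel subunit. It was at 63.2, 59.2 and 63.9 CPM for Ctrl and 44.7, 45.4 and 23.4 for KD in B6, and at 2.11, 2.04 and 1.78 for Ctrl and 1.29, 1.499 and 3.07 for KD in D2, or 24.6-fold lower in D2 on average (-4.62 ± 0.24, adjusted p = 1.12e-07). Its exons share 696 bases with those of Gca on the opposite strand. Kcnj3, the GIRK1 subunit, was at 173, 176 and 207 CPM in B6 Ctrl and 63.2, 54.9 and 39.4 in D2 Ctrl (-1.86 ± 0.15, adjusted p = 2.86e-06). Its partners Kcnj6 and Kcnj9 were not called, at 0.47 ± 0.19 and 0.20 ± 0.14. Kcnd1, a Kv4 pore gene on the X chromosome, was at 15.8, 15.2 and 14.7 CPM in B6 Ctrl and 6.26, 6.11 and 7.82 in D2 Ctrl (-1.08 ± 0.11, adjusted p = 2.19e-05). The modulatory subunit genes Kcng1 and Kcnf1 were lower in D2 by 1.89-fold and 1.62-fold, and both were called in Ctrl but not in KD. The interaction had an unadjusted p of 0.163 for Kcng1 and 0.0357 for Kcnf1, and neither passed adjustment.

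Higher in D2 by the largest amount was Kcna2 (ENSMUSG00000040724, chr3:107101146-107115005), the Kv1 pore that joins Kcna1 along axons. It was at 15.1, 21.3 and 40.7 CPM for Ctrl and 22.4, 18.1 and 10.9 for KD in B6, and at 306, 303 and 215 for Ctrl and 215, 258 and 286 for KD in D2. The lowest D2 library was thus several times the highest B6 library, which was B6 Ctrl 3, and the averaged difference was 12.6-fold (3.65 ± 0.27, adjusted p = 1.63e-06). Kcna1 did not differ by more than its error (0.03 ± 0.17, adjusted p = 0.949). Kcnn3 was at 1.94, 2.06 and 4.800 CPM in B6 Ctrl and 16.6, 24.00 and 10.6 in D2 Ctrl, or 5.802-fold higher in D2 (adjusted p = 0.000243). B6 Ctrl 3 was again the highest B6 library, though still below every D2 library.

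Smaller differences, higher in D2, were called for Kcnj11, the Kir6.2 pore of ATP-sensitive channels (1.25 ± 0.11, adjusted p = 6.11e-06), Kcnma1 (0.89 ± 0.17, 0.00288) and, by 2.304-fold, Kcnj14 (0.00432). Also called were Kcnj12, which encodes Kir2.2, at 0.69 ± 0.14 and the modulatory subunit gene Kcns2 at 0.64 ± 0.15. Averaged over treatments, Kcnn3 was called among the 3 SK genes, with Kcnn1 at 0.22 ± 0.08 and Kcnn2 at 0.00 ± 0.09. Kcnn1 was called higher in D2 within KD alone (0.42 ± 0.11, adjusted p = 0.0269). In the 3 strain comparisons the auxiliary Kv beta, KChIP, BK beta and KCNE genes held no call.

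**Figure D5:**
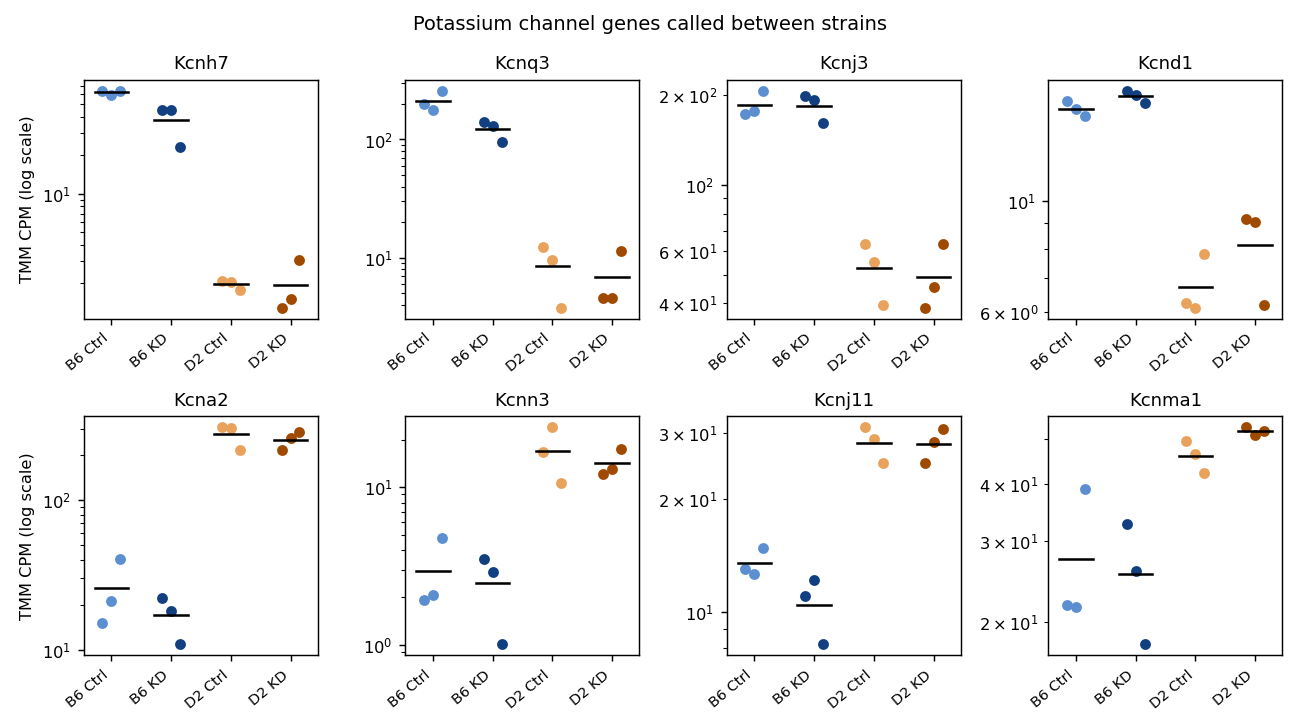
Level in TMM CPM (vertical axes, log scale, each with its own range) of 8 potassium channel genes called for D2 against B6. Points are libraries 1, 2 and 3 from left to right and horizontal bars are means. The upper row holds genes lower in D2 and the lower row genes higher in D2, and in every panel the 6 D2 points lie on one side of the 6 B6 points, KD and Ctrl alike.

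An expected count with decimals arises where reads fit more than 1 place. Kcnh7, Kcnq3 and Kcnj3 had decimals in B6 libraries and in no D2 library, and Kcna2 had them in D2 libraries only, whereas decimals were present in 27.6% of the values of tested genes in B6 and 14.6% in D2. The other 12 called genes had no decimals in any library. The part of read assignment in the 4 differences was not tested.

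Proteins that work with these channels were read from a list of 29 genes of auxiliary, anchoring and clustering proteins, sulfonylurea receptors, HCN channels and calmodulins, of which 28 were tested. In B6 none was called by edgeR after KD, beside 0.877% of all genes called lower and 1.76% higher. Of the 28 estimates 23 were lower, against 49.4% of all genes, and the median was -0.23. DESeq2 called 7 lower and 0 higher, beside 4.88% and 5.77% of all genes. Jph4, a junctophilin that couples calcium stores to SK-type currents, was at 541 CPM in B6 Ctrl and 345 in B6 KD on average (-0.65 ± 0.15, adjusted p = 0.0512), Amigo1, the Kv2 auxiliary subunit, at 127 and 95.2 (-0.41 ± 0.11, 0.0637), and Cntnap1, which organises axonal domains next to Kv1 clusters, at 306 and 203 (-0.59 ± 0.16, 0.0668). These 3 were chosen as the smallest p-values of the list after their values were seen. In D2 none was called and 22 of 28 were lower, against 48.7% of all genes, with a median of -0.06. Averaged over treatments, 2 of the 28 were called higher in D2 and 1 lower, beside 8.64% and 12.7% of all genes. Among them Dlg2, the gene of PSD-93, was higher in D2 (1.00 ± 0.22, adjusted p = 0.00588) and the ankyrin gene Ank3 lower (-0.51 ± 0.13, 0.0147).

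Among 11 genes of potassium transport, the subunits of the sodium pump and the potassium-coupled chloride cotransporters, 1 was called lower after KD in B6, beside 0.877% of all genes. Slc12a5, the neuronal cotransporter KCC2, fell from 690.4 to 471 CPM on average (-0.55 ± 0.09, adjusted p = 0.0332) and was at 646 and 619 in D2 (-0.06 ± 0.09). In B6, 4 of the 11 estimates were lower and 7 higher, beside 49.4% and 50.4% of all genes, with a median of 0.09. None of the 11 was called after KD in D2. Between strains averaged over treatments 1 was called higher in D2, beside 8.64% of all genes, and 0 lower, beside 12.7%. That gene was the pump subunit gene Atp1b2 (0.29 ± 0.08, adjusted p = 0.0186). Within KD alone Slc12a5 was called higher in D2 (0.39 ± 0.09, adjusted p = 0.0149).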

How the data were processed

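Per the labels, total RNA from dissected hippocampus was made into libraries with an mRNA kit. The authors used a strain-matched reference for the paired reads, and the submitters' processing notes name RSEM 1.2.12, Bowtie2 2.2.0 and GRCm38. The deposited expected counts are unnormalised RSEM estimates per gene. A deposited signal, the DESeq2 normalised count per gene, equals the expected count without its decimals divided by 1 size factor per library (whole reads for 100% of 266784 values, within 0.01 reads) and was used only for Hp1bp3. For most samples the reads of 2 runs had been joined.

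Here expected counts were rounded, genes of low count were removed by filterByExpr over the 4 groups, and 15853 of 22236 genes were tested with edgeR 4.0.16 in R 4.3.3 (TMM, glmQLFit with robust estimation, glmQLFTest). A mean was fitted for each group, with 1 spread for all 12 libraries. The 7 comparisons were KD in B6, KD in D2, their mean and their difference, and strain in Ctrl, in KD and on average. Benjamini-Hochberg adjusted p-values over all tested genes under 0.05 were called. SEs are approximate, from the ratio of each log2 fold change to the root of its F statistic. The fit was tested on simulated data. Alternatives were DESeq2 1.42.0, limma-voom (limma 3.58.1) with and without library weights, other size factors, the newer quasi-likelihood method, no filter, 2 covariates and leaving out each library. Groups came from the labels, and replicate numbers follow the order of deposit and pair nothing.

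The members, gene lists and naming rules were chosen with earlier results of these data known. Members were named where called (for strain, the 10 smallest p-values), where among the 4 largest rises or falls in B6, D2 or strain at a mean of 1 CPM or more, where among the 4 smallest interaction p-values, and from fixed lists of pyramidal neuron channels and of channels of other cells, together with the highest of each class per length. Some genes under these rules, 4 of them potassium channel genes, are not reported here and are left out of the plots, but they stay in the fits and counts. Coordinates and exon lengths are from GENCODE M21. Exons of 8 members share bases with another gene of the count table and those of 25 with any annotated gene, and whether counting used the strand is not given in the sources used here.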

Additional observations from a re-analysis of the deposited data

How the results depend on the processing

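The number of potassium channel genes called for KD in B6 (1 in the report) was 3 with DESeq2 size factors, 10 with DESeq2, 4 with the newer quasi-likelihood method, 12 with limma-voom and library weights (an alternative chosen after seeing the data), and 0 without the filter, with the choroid score and with the library total as covariates. With single libraries left out it ran from 0 to 6. For KD averaged over strains (0 in the report) it was 8 with DESeq2 and 10 with library weights, and ran from 0 to 7 with single libraries left out. Shares of all genes are given above for DESeq2 and the newer method, and the other counts here have no such background. The counts for KD in D2 and for the interaction stayed at 0 and the 3 strain counts within 1.5 times in all 20 other fits, and the 30 named strain values kept their sign. The Hp1bp3 difference ran from -2386 to -1818 with single libraries left out, at exact permutation p-values of 0.005 to 0.035. Signs turned in B6 for Kcnj13 (-0.24), Kcnma1 (0.00505), Kcnj3 (0.040) and Kcnj16 (0.0095) with the choroid covariate, and for Kcnn3 (0.13), Kcnma1 (0.10), Kcnj3 (0.068) and Kcnj16 (0.093) with library weights. With single libraries left out the ranges crossing 0 are -0.22 to 0.14 for Kcnj16, -0.085 to 0.076 for Kcnj3, -0.27 to 0.17 for Kcnj6, -0.33 to 0.21 for Kcnma1 and -0.64 to 0.26 for Kcnn3. The cause was not tested. No paired analysis was possible because replicate numbers follow the order of deposit, so the groups share no labelled numbers. With 3 mice per group, a single value compared within 1 strain by permutation cannot go below p = 0.1.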

Other observations

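Within B6, 17 of the 78 potassium channel genes had their highest level in B6 Ctrl 3 and their lowest in B6 KD 3. They included Kcna2, Kcnn3, Kcnq3, Kcnq5, Kcnma1, Kcnt2, Kcnd2, Kcnj3 and Kcnh7, and were picked after their values were seen. Their median exon length was 7138 bp, against 4151 bp for the other members. The share of all tested genes with this order of libraries is not given here, so the count of 17 has no background beside it. Over the 78 members, Spearman's rho between exon length and the deviation from the gene's mean within its strain was 0.45 in B6 Ctrl 3, 0.21 in B6 KD 1, -0.34 in B6 KD 3 and between -0.13 and -0.03 in the other 3 B6 libraries. In D2 it was 0.33, 0.24 and -0.34 in Ctrl 1, 2 and 3, and -0.29, -0.16 and 0.31 in KD 1, 2 and 3. The genes share libraries and are not independent replicates, so no test is given.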
